A study of Mus musculus with 6 samples.

Results

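The 8 genes described here belong to cardiac growth signalling: Edn1, Ece1, Ednra and Ednrb of the endothelin system, the neurotrophin gene Bdnf, the calcineurin regulator gene Rcan1, the growth factor gene Hbegf and the angiotensin precursor gene Agt. They are 8 of the 38087 genes listed, were picked by name with earlier results of the same comparison in view, and were found by matching Ensembl gene IDs to GENCODE M21 symbols. Their differences between the groups are therefore given as a description, with no test, whereas the other genes of their pathways were tested one by one across all genes. The pathway lists were also drawn up with earlier results known, so their counts and shares describe the lists and are no independent evidence. The RNA came from HL-1 cells, a mouse line derived from atrial cardiomyocytes, that received either 100 nM Circ-INSR siRNA, aimed at a circRNA from the insulin receptor locus, or a scrambled siRNA as control, for which it is not clear that the dose was the same. Each of the 2 groups had 3 libraries, and no other agent or genetic change is named in the labels. HL-1 is a single immortalised line, the time between transfection and harvest is not given in the sources used here, and separate cultures for the 3 libraries of a group are not stated, so p-values measure only the spread between these libraries, which may be technical.

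The endothelin system begins with a secreted peptide. Its precursor is cut by proprotein convertases such as furin and then by endothelin converting enzyme, and the active peptide binds the A and B receptors, which couple to Gq proteins. In heart muscle this route, angiotensin acting on its type 1 receptor, and ligands of the ErbB receptors are known as stimuli of hypertrophic growth, and the phosphatase calcineurin with its NFAT transcription factors is a known relay of such growth. BDNF is best known as a neuronal survival factor that acts through the receptor TrkB, and its precursor form binds the p75 receptor together with sortilin family proteins.

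Total counts lay between 68468620 and 77037474 in the Circ-INSR siRNA libraries and between 60024750 and 62523602 in the control siRNA libraries. Of 16666 genes with enough counts to test, 4750 (28.5%) were higher in Circ-INSR siRNA libraries and 4745 (28.5%) were lower, so 57.0% of genes passed the threshold (edgeR's quasi-likelihood F-test with p adjusted by Benjamini-Hochberg, threshold 0.05). The host gene Insr had 89.2 CPM in each of the 3 Circ-INSR siRNA libraries, against 129.0, 127.6 and 103.8 CPM in the control siRNA libraries. It was past the threshold and lower (log2 fold change -0.43, SE 0.07, edgeR adjusted p = 0.0003935). CPM relates each count to its library's total, so that depth cancels, here after TMM scaling, which evens out differences in composition between libraries. Counts of poly(A)-selected RNA do not tell a circular from a linear transcript, so how far the circRNA was reduced was not measured. Control siRNA replicate 3 was the odd library: its chi-square against replicates 1 and 2, averaged over genes, was 31.3 and 21.8, and that between replicates 1 and 2 was 6.99. Of 11 atrial cardiomyocyte markers, 10 were above 1 CPM in every library, and the summed level of all 11 was 7310 to 7430 CPM in Circ-INSR siRNA libraries and 6630 to 6940 CPM in control siRNA libraries. Of these 11 genes 4 rose and 4 fell, among them Actc1, cardiac actin, which rose (log2 fold change 0.87, SE 0.04; edgeR adjusted p = 5.04e-09), and Tnnt2, cardiac troponin T, which fell (log2 fold change -0.73, SE 0.04; edgeR adjusted p = 2.72e-08). The gene not above 1 CPM in every library was that of sarcolipin, Sln, at 0.777 to 1.01 CPM. Nppa, the atrial natriuretic peptide gene, had only 15.6 to 17.4 CPM in Circ-INSR siRNA libraries and 16.3 to 17.0 CPM in control siRNA libraries.

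After Circ-INSR siRNA, Edn1 and Bdnf were each at over 2 times their control level, Ednrb was higher by a smaller factor, Rcan1 and Ece1 were lower, and Ednra, Hbegf and Agt overlapped between the groups. Of the 8 genes, which all had enough counts for the test across genes, 3 were past its threshold and higher and 2 were past it and lower, beside 28.5% and 28.5% of all genes. The same 5 genes, 3 above and 2 below control, had no overlap between the groups, beside 63.3% of all genes (32.0% above and 31.3% below). Since the 8 genes were picked with this comparison known, nothing is read from these shares. The median log2 fold change of the 8 genes was 0.006 and that of all genes tested was -0.005.

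**Figure D1:**
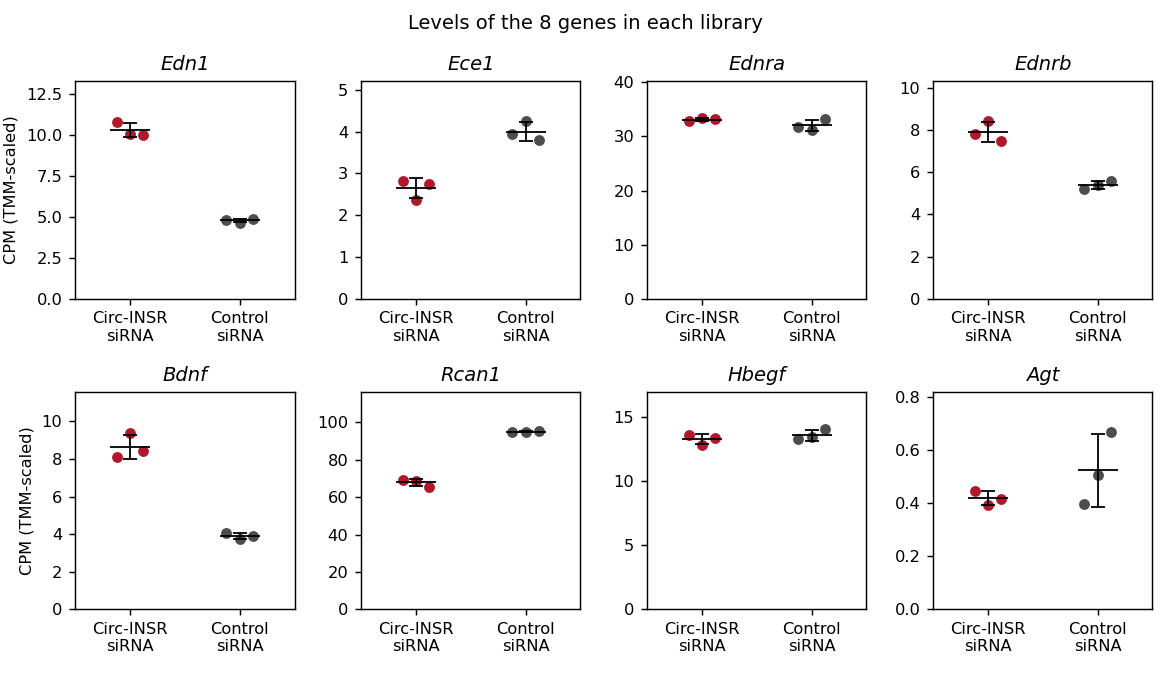
Level of each of the 8 genes (TMM-scaled CPM, linear axis from 0) in the 3 Circ-INSR siRNA libraries and the 3 control siRNA libraries; points are libraries and bars the mean ± SD. The groups lie apart for Edn1, Bdnf, Ednrb, Ece1 and Rcan1, and overlap for Ednra, Hbegf and Agt.

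Edn1 encodes the precursor of endothelin-1, the ligand (ENSMUSG00000021367, mm10 chromosome 13, 42301476 to 42307990, plus strand). It had 10.8, 10.1 and 10.0 CPM in Circ-INSR siRNA libraries, from 726, 765 and 720 counts. In control siRNA libraries it had 4.81, 4.66 and 4.89 CPM, from 291, 294 and 307 counts. Every Circ-INSR siRNA library was above every control library, and the spread within each group was small beside the distance between them. The means were 10.3 ± 0.432 CPM in Circ-INSR siRNA and 4.79 ± 0.116 CPM in control siRNA libraries (SD, n = 3 each), a ratio of 2.15 and a log2 fold change of 1.10 (SE 0.08). Only 490 of the 16666 genes tested (2.94%) were past the threshold and higher by a log2 fold change of at least 1, and Edn1 ranked 404th from the top by log2 fold change. Edn1 is also known as a gene of endothelial cells. The summed level of 6 endothelial markers was 82.8 to 86.7 CPM in Circ-INSR siRNA libraries and 27.3 to 30.7 CPM in control libraries, which rested on the receptor genes Kdr and Tek. Among the rest, Cdh5 and Vwf had at most 4 and 6 counts in any library. Pecam1 had 31 to 99 counts per library and Tie1 3 to 24, and neither passed the threshold. The part of these markers in the Edn1 value was not tested. In bulk RNA a change in the share of cells that express a gene and a change in RNA per cell cannot be told apart. The 250 bases before the annotated Edn1 start (GRCm38.p6, chr13:42301226-42301475, plus strand) are shown because Edn1 is one of the genes with the widest gap between the groups, with capitals marking matches on either strand to AP-1, cyclic AMP response element, GATA or NFAT core letters, here and in the other windows shown.
Edn1: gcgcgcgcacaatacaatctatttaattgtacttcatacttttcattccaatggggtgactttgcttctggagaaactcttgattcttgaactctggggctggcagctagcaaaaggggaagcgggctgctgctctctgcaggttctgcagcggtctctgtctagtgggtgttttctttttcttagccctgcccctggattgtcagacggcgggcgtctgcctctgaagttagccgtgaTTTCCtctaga

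Ece1, the converting enzyme that cuts the endothelin precursor to its active form (ENSMUSG00000057530, chromosome 4, 137862237 to 137965229, plus strand), went the other way. It had 2.81, 2.37 and 2.76 CPM in Circ-INSR siRNA libraries and 3.95, 4.25 and 3.79 CPM in control libraries. All Circ-INSR siRNA libraries were below all controls, at counts of only 180 to 198 per Circ-INSR siRNA library and 238 to 268 per control library. The means were 2.64 ± 0.240 CPM in Circ-INSR siRNA and 3.996 ± 0.232 CPM in control siRNA libraries (SD, n = 3 each), with a log2 fold change of -0.60 (SE 0.11). Compared per kilobase of exon, the Edn1 level was 9.52, 10.5 and 9.01 times that of Ece1 in Circ-INSR siRNA libraries and 3.02, 2.72 and 3.20 times in control libraries.

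The receptor genes differed from each other. Ednra, the A receptor, which is the main endothelin receptor of heart muscle cells (ENSMUSG00000031616, chromosome 8, 77663031 to 77724464, minus strand), had 32.8, 33.4 and 33.1 CPM in Circ-INSR siRNA libraries and 31.8, 31.3 and 33.2 CPM in control libraries. The groups overlapped, and the log2 fold change was 0.05 (SE 0.05). Ednrb, the B receptor, which also clears the peptide in other tissues (ENSMUSG00000022122, chromosome 14, 103814625 to 103844402, minus strand), had 7.82, 8.45 and 7.47 CPM in Circ-INSR siRNA libraries. It had 5.21, 5.42 and 5.57 CPM in control libraries, so the groups lay apart. The means were 7.91 ± 0.495 CPM in Circ-INSR siRNA and 5.4 ± 0.185 CPM in control siRNA libraries (SD, n = 3 each), a ratio of 1.46 and a log2 fold change of 0.55 (SE 0.08). Per kilobase of exon, Ednra was 3.27, 3.08 and 3.46 times the level of Ednrb in Circ-INSR siRNA libraries and 4.76, 4.49 and 4.65 times in control libraries. Ednra thus remained the more abundant receptor mRNA in every library, by a smaller factor after Circ-INSR siRNA. A gene on the opposite strand, 4933431K23Rik, shares 91 exonic bases with Ednra and had 67 to 98 counts per library. The strand setting of the counting is not given in the sources used here.

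**Figure D2:**
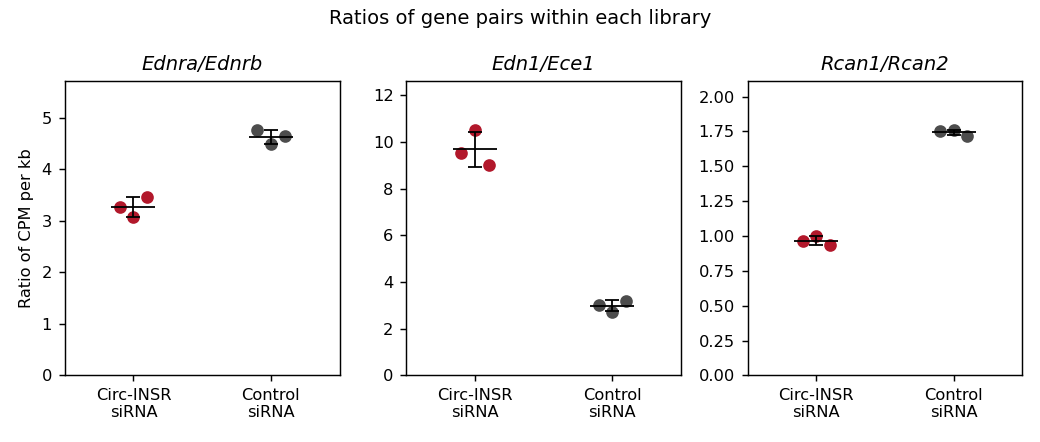
Ratio of CPM per kilobase of exon between gene pairs within each library, with points for the 3 Circ-INSR siRNA and the 3 control siRNA libraries and bars for the mean ± SD. Ednra/Ednrb was 3.27 ± 0.187 after Circ-INSR siRNA and 4.63 ± 0.134 in controls, Edn1/Ece1 was 9.69 ± 0.774 after Circ-INSR siRNA and 2.98 ± 0.241 in controls, and Rcan1/Rcan2 was 0.969 ± 0.0346 after Circ-INSR siRNA and 1.74 ± 0.0203 in controls.

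Of the 6 other endothelin pathway genes, 3 had enough counts to test. Ece2, a relative of the converting enzyme, rose to 14.0, 12.6 and 12.9 CPM in Circ-INSR siRNA libraries, against 7.87, 8.64 and 8.73 CPM in control libraries (log2 fold change 0.64, SE 0.07; edgeR adjusted p = 1.65e-05). It moved opposite to Ece1, although Ece2 shares 2937 exonic bases with the predicted gene Gm49333 on the same strand, and how such reads were counted is not given in the sources used here. Furin, the convertase that makes the first cut of the precursor, fell to 262.7, 255.2 and 262.6 CPM in Circ-INSR siRNA libraries, against 392.6, 373.2 and 348.6 CPM in control libraries (log2 fold change -0.51, SE 0.05; edgeR adjusted p = 3.16e-06). Edn2, a second endothelin ligand, had only 6 to 16 counts per library and did not pass (edgeR adjusted p = 0.0929). Edn3, a further ligand, and the peptidase genes Kel and Mme had at most 1, 3 and 2 counts in any library.

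Bdnf encodes brain-derived neurotrophic factor (ENSMUSG00000048482, chromosome 2, 109674700 to 109727007, plus strand). It had 8.13, 9.37 and 8.43 CPM in Circ-INSR siRNA libraries, from 547, 712 and 606 counts, and 4.08, 3.72 and 3.92 CPM in control libraries, from 247, 235 and 246 counts. The lowest Circ-INSR siRNA library was well above the highest control. The means were 8.64 ± 0.647 CPM in Circ-INSR siRNA and 3.91 ± 0.179 CPM in control siRNA libraries (SD, n = 3 each), a ratio of 2.21 and a log2 fold change of 1.15 (SE 0.09), which ranked 372nd from the top, close to Edn1. Of 6 neuronal and glial markers 1 was above 1 CPM in every library, the summed level was 5.01 to 5.82 CPM in Circ-INSR siRNA libraries and 4.67 to 5.22 CPM in control libraries, and Snap25 and Sox10 had at most 1 and 4 counts. Bdnf is known to be transcribed from several alternative starts, each with its own first exon, and RefSeq gives 7 start windows for it. Counts per gene do not tell these apart. Gm45346, an antisense gene that is not among the IDs of the files, shares 896 exonic bases with Bdnf. The windows before the first annotated start (chr2:109674450-109674699, plus strand) and before the second (chr2:109676782-109677031, plus strand) are shown because the second is the only Bdnf window with an AP-1 match.
Bdnf window 1: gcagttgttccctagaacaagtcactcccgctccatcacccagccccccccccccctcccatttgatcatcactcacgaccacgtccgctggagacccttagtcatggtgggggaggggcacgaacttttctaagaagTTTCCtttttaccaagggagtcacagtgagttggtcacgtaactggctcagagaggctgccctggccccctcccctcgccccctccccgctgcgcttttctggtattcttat
Bdnf window 2: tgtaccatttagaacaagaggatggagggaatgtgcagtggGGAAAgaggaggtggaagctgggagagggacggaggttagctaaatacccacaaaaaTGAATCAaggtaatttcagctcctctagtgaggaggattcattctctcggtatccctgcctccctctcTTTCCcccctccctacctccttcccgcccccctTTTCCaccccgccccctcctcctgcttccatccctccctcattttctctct

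Ntrk2, which encodes the BDNF receptor TrkB, had 0 to 8 counts per library, and the neurotrophin gene Ntf3 had 0 counts in every library. Of the 17 other genes of the list, 10 could be tested, of which 3 rose and 6 fell after Circ-INSR siRNA (30% and 60%, beside 28.5% and 28.5% of all genes), with a median log2 fold change of -0.43 against -0.005 for all genes. Ngfr, the p75 receptor, fell to 0.609, 0.684 and 0.696 CPM in Circ-INSR siRNA libraries, against 1.47, 1.09 and 1.07 CPM in control libraries (log2 fold change -0.86, SE 0.20; edgeR adjusted p = 0.00303). Sorcs2, which can bind the BDNF precursor together with p75, fell to 4.55, 4.22 and 4.05 CPM in Circ-INSR siRNA libraries, against 9.85, 9.99 and 8.65 CPM in control libraries (log2 fold change -1.15, SE 0.09; edgeR adjusted p = 6.88e-07). Sort1, the related sorting receptor sortilin, rose by a log2 fold change of 0.21 (SE 0.06; edgeR adjusted p = 0.00662). Furin, which also cuts the BDNF precursor, fell as given above, while Pcsk7, another convertase, rose by 0.32 (SE 0.06; edgeR adjusted p = 0.000613). Pcsk7 shares 108 exonic bases on the opposite strand with Tagln, which had 30081 to 43082 counts per library and was itself higher after Circ-INSR siRNA. It also shares 415 with Rnf214 on the opposite strand, which had 1703 to 2425 counts. The part of such reads in the Pcsk7 value was not tested. Kidins220, a scaffold protein of Trk receptors, fell by 0.35 in log2 CPM (SE 0.08; edgeR adjusted p = 0.00317).

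Rcan1, an inhibitor of calcineurin, was the most abundant of the 8 genes (ENSMUSG00000022951, chromosome 16, 92391953 to 92470867, minus strand). It had 69.4, 68.6 and 65.7 CPM in Circ-INSR siRNA libraries and 94.97, 94.8 and 95.5 CPM in control libraries, with the groups far apart. The means were 67.9 ± 1.94 CPM in Circ-INSR siRNA and 95.1 ± 0.377 CPM in control siRNA libraries (SD, n = 3 each), a ratio of 0.714 and a log2 fold change of -0.49 (SE 0.04). RefSeq gives 2 starts for Rcan1. The transcript from the internal start is known in the heart as a target of calcineurin and NFAT, whereas that from the distal start is regulated otherwise. The gene counts do not tell these transcripts apart. In GENCODE the gene reaches beyond the distal RefSeq start at 92466169, to 92470867, so the counts may also hold other transcripts. Windows before both starts are shown on the minus strand, the distal one at chr16:92466170-92466419 and the internal one at chr16:92400079-92400328, because the motif matches differ between them.
Rcan1 distal start: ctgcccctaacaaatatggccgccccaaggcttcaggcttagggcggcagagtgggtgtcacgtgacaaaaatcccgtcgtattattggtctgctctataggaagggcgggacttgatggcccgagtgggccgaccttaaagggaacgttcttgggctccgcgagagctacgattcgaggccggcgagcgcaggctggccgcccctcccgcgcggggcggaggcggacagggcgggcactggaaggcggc
Rcan1 internal start: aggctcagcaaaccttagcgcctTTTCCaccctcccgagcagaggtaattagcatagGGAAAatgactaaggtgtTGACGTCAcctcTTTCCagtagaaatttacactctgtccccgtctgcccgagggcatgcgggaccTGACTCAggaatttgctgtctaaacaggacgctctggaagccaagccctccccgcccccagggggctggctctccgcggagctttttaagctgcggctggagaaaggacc

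Of the 19 other genes of the calcineurin and NFAT list, 17 could be tested, of which 10 rose, 2 fell and 5 did not pass. The share that rose was 58.8%, beside 28.5% of all genes, and the share that fell 11.8%, beside 28.5%, with a median log2 fold change of 0.178. The regulators of calcineurin moved apart. Rcan2 rose to 101.9, 96.8 and 99.5 CPM in Circ-INSR siRNA libraries, against 76.96, 76.5 and 78.8 CPM in control libraries (log2 fold change 0.36, SE 0.04; edgeR adjusted p = 1.93e-05). Rcan3 fell to 64.6, 64.5 and 67.0 CPM in Circ-INSR siRNA libraries, against 91.5, 93.8 and 82.7 CPM in control libraries (log2 fold change -0.45, SE 0.05; edgeR adjusted p = 1.86e-05). Per kilobase of exon, the Rcan1 level was 0.966, 1 and 0.935 times that of Rcan2 in Circ-INSR siRNA libraries and 1.75, 1.76 and 1.72 times in control libraries. Ppp3ca, a catalytic subunit of calcineurin, had 82.4, 82.0 and 86.6 CPM in Circ-INSR siRNA libraries and 76.3, 81.8 and 85.2 CPM in control libraries and did not pass (edgeR adjusted p = 0.479). Nfatc3, a transcription factor that calcineurin activates, rose to 297.7, 304.8 and 286.9 CPM in Circ-INSR siRNA libraries, against 210.6, 223.7 and 189.5 CPM in control libraries (log2 fold change 0.51, SE 0.06; edgeR adjusted p = 1.45e-05). Dyrk1a and Gsk3b, kinases that phosphorylate NFAT and so oppose calcineurin, rose by log2 fold changes of 0.32 (SE 0.04; edgeR adjusted p = 7.40e-05) and 0.31 (SE 0.05; edgeR adjusted p = 0.000252). Myoz2, a Z-disc protein that binds calcineurin, rose by 0.42 (SE 0.07; edgeR adjusted p = 0.000319).

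**Figure D3:**
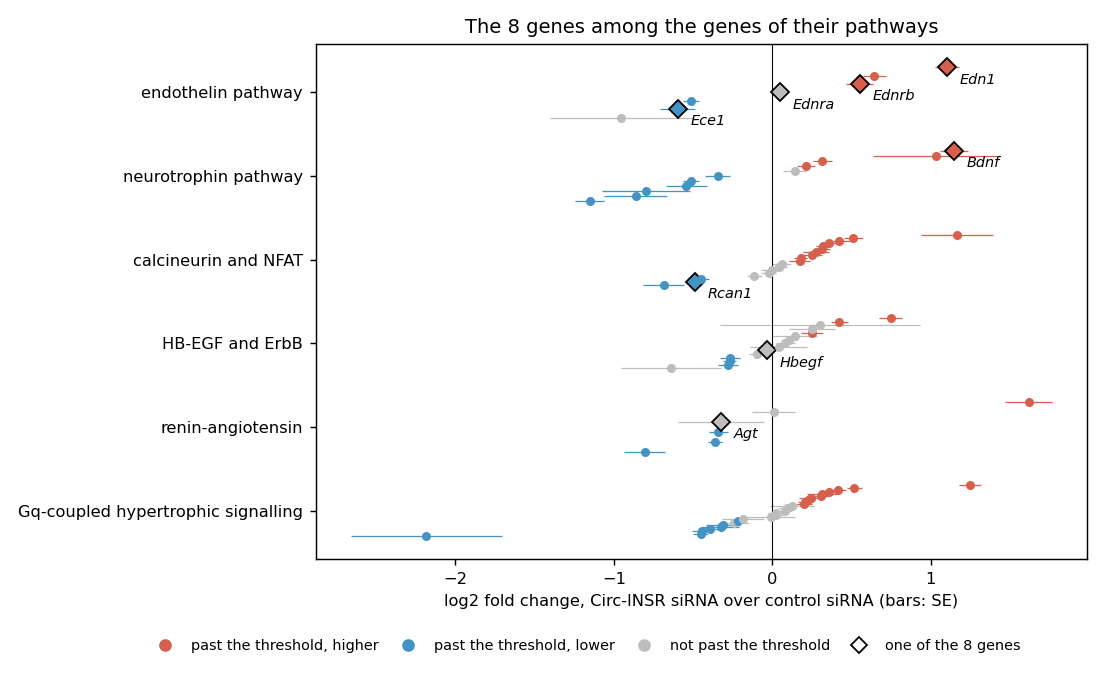
Log2 fold change of Circ-INSR siRNA over control siRNA for every tested gene of 6 pathway lists, with bars for the SE, red for genes past the all-gene threshold and higher, blue for those past it and lower, and grey for the rest; diamonds are the 8 genes. Edn1 and Bdnf are at the upper end of their lists, at 1.10 and 1.15, and Rcan1 lies at -0.49 below most of the calcineurin and NFAT genes.

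Hbegf encodes a membrane-anchored ligand of the EGF receptor and ErbB4 that is released by ADAM proteases (ENSMUSG00000024486, chromosome 18, 36504927 to 36515805, minus strand). It had 13.6, 12.9 and 13.4 CPM in Circ-INSR siRNA libraries and 13.3, 13.5 and 14.1 CPM in control libraries. The groups overlapped, with means of 13.3 ± 0.390 CPM in Circ-INSR siRNA and 13.6 ± 0.434 CPM in control siRNA libraries (SD, n = 3 each) and a log2 fold change of -0.03 (SE 0.06), whose sign turned when the trend on gene length and base composition was removed. Of its receptors, Egfr had only 1 to 18 counts per library (edgeR adjusted p = 0.705), while Erbb4 rose to 40.0, 44.3 and 39.6 CPM in Circ-INSR siRNA libraries, against 23.8, 27.4 and 22.7 CPM in control libraries (log2 fold change 0.75, SE 0.07; edgeR adjusted p = 4.35e-06). Erbb2, the partner receptor with no ligand of its own, rose by 0.25 (SE 0.07; edgeR adjusted p = 0.00958). The releasing protease gene Adam17 had a log2 fold change of -0.10 (SE 0.05) and did not pass (edgeR adjusted p = 0.118). It passed at an edgeR adjusted p of 0.047 without control siRNA replicate 3. Adam17 shares 311 exonic bases on the opposite strand with Iah1, which had 615 to 859 counts per library. The part of such reads in the Adam17 value was not tested. Adam9, another releasing protease, fell by 0.27 in log2 CPM (SE 0.04, edgeR adjusted p = 0.000149). The receptor inhibitors moved apart, with Lrig1 higher by 0.42 (SE 0.05; edgeR adjusted p = 2.93e-05) and Errfi1 lower, at -0.28 (SE 0.06; edgeR adjusted p = 0.00239). Of the neuregulins, further ErbB ligands, Nrg1 did not pass (log2 fold change 0.25, SE 0.14; edgeR adjusted p = 0.157) and Nrg2 fell by 0.27 (SE 0.06; edgeR adjusted p = 0.00284). In all, 14 of the 21 other genes of this list could be tested, and 3 rose and 3 fell, 21.4% each beside 28.5% of all genes each way.

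Agt, the precursor of angiotensin (ENSMUSG00000031980, chromosome 8, 124556534 to 124569706, minus strand), was barely detected. It had 30 counts in each Circ-INSR siRNA library, or 0.446, 0.395 and 0.417 CPM, and 24, 32 and 42 counts in control libraries, or 0.397, 0.507 and 0.669 CPM. The groups overlapped, and controls varied by 26.1% of their mean. The log2 fold change was -0.32 (SE 0.27), and -0.11 without control siRNA replicate 3, so a difference was not detectable at this depth. The rest of the system was incomplete at the mRNA level. Ren1, which encodes renin, and the receptor genes Agtr1a, Agtr1b and Agtr2 had at most 4, 2, 6 and 0 counts in any library, and Enpep, a peptidase that degrades angiotensin, at most 5. Ace, the angiotensin converting enzyme, fell to 2.27, 2.53 and 2.98 CPM in Circ-INSR siRNA libraries, against 4.88, 3.99 and 4.75 CPM in control libraries (log2 fold change -0.81, SE 0.13; edgeR adjusted p = 0.000202). Anpep, an aminopeptidase that trims angiotensin peptides, rose to 6.32, 7.15 and 4.91 CPM in Circ-INSR siRNA libraries, against 1.75, 2.17 and 2.05 CPM in control libraries (log2 fold change 1.62, SE 0.15; edgeR adjusted p = 2.53e-06). Agtrap, which promotes uptake of the type 1 receptor, fell by 0.36 in log2 CPM (SE 0.05; edgeR adjusted p = 3.07e-05), and Atp6ap2, a prorenin receptor and subunit of the vacuolar proton pump, fell by 0.34 (SE 0.06; edgeR adjusted p = 0.000395). Of the 12 other genes of this list 5 could be tested, and 1 rose and 3 fell (20% and 60%, beside 28.5% and 28.5% of all genes).

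The endothelin and angiotensin receptors share Gq-coupled signalling, for which 25 of 28 listed genes could be tested. Of these 10 rose and 7 fell, 40% and 28% beside 28.5% and 28.5% of all genes, with a median log2 fold change of 0.079. Gnaq, the Gq alpha subunit, rose to 102.3, 100.8 and 103.1 CPM in Circ-INSR siRNA libraries, against 80.6, 79.8 and 78.4 CPM in control libraries (log2 fold change 0.36, SE 0.04; edgeR adjusted p = 1.42e-05). Gna13, of the related G12 family, rose by 0.52 (SE 0.05; edgeR adjusted p = 2.00e-06). Prkd1, a protein kinase D that phosphorylates class II histone deacetylases, rose to 19.4, 19.4 and 20.6 CPM in Circ-INSR siRNA libraries, against 8.96, 8.004 and 8.06 CPM in control libraries (log2 fold change 1.25, SE 0.07; edgeR adjusted p = 4.14e-08). Mef2c, a transcription factor that those deacetylases repress, rose by 0.42 (SE 0.05; edgeR adjusted p = 1.17e-05). Prkcd, a protein kinase C, fell by 0.45 in log2 CPM (SE 0.05; edgeR adjusted p = 7.21e-06). Rgs2, which switches Gq off, had at most 2 counts in any library.

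The levels of the 8 genes relative to each other can be compared per kilobase of exon, on the union of the annotated exons, which overstates the length of genes with many alternative exons such as Bdnf. In Circ-INSR siRNA libraries the order of the means was Rcan1, Ednra, Edn1, Hbegf, Ednrb, Bdnf, Ece1 and Agt, at 22.01, 6.05, 4.81, 2.75, 1.86, 1.39, 0.499 and 0.222 CPM per kilobase. In control siRNA libraries it was Rcan1, Ednra, Hbegf, Edn1, Ednrb, Ece1, Bdnf and Agt, at 30.8, 5.86, 2.82, 2.24, 1.27, 0.754, 0.629 and 0.277 CPM per kilobase. Per kilobase, Edn1 was thus above Hbegf, and Bdnf above Ece1, only in the Circ-INSR siRNA libraries. No neighbours in either order overlapped between libraries. The orders depend on the exon lengths used. In CPM without lengths, Hbegf was above Edn1 in every library, and Bdnf and Ece1 overlapped in control libraries. The spread over the libraries of a group was between 0.879% and 9.08% of the mean for the 8 genes after Circ-INSR siRNA, and between 0.396% and 5.81% in control libraries apart from Agt.

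**Figure D4:**
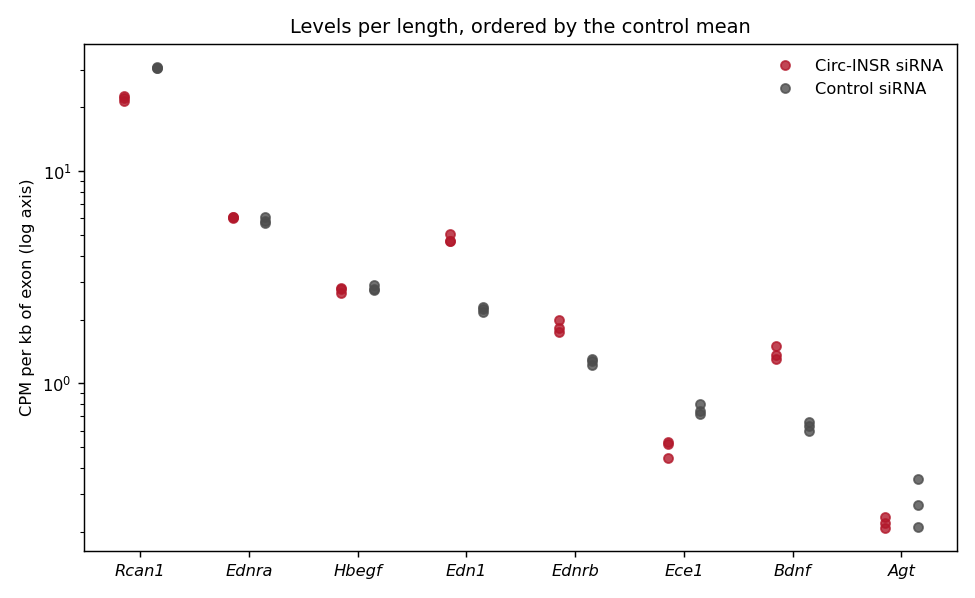
Level of the 8 genes per kilobase of exon (log axis) in the 3 Circ-INSR siRNA libraries (red) and the 3 control siRNA libraries (grey), ordered by the control mean from Rcan1 at 30.8 to Agt at 0.277 CPM per kilobase. On this scale, which depends on the exon lengths used, Edn1 and Bdnf change places with Hbegf and Ece1 after Circ-INSR siRNA.

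The genes whose log2 CPM followed each gene most closely over the 6 libraries were looked up among 11262 genes (11263 for Agt). Edn1 was followed most closely by Cdc42se2 (Pearson r = 0.99996), Bdnf by Cd99l2 (0.99968), Ednrb by Ddx10 (0.99953), Rcan1 by Naa80 (0.99948) and Ece1 by Stoml1 (0.99528). With 6 libraries in 2 groups, such values mostly repeat the difference between the groups, and 2159 genes had r over 0.95 with Edn1, 1929 with Bdnf, 1580 with Ednrb, 1948 with Rcan1 and 977 with Ece1. The 3 genes whose groups overlapped had few companions. Ednra was nearest to Mnd1 (0.97615) with 12 genes over 0.95, Hbegf to Srd5a3 (0.97477) with 6, and Agt to Rsrc2 (0.99438) with 35.

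Promoter windows of 250 bases before the start were taken from the RefSeq table for 7 of the 8 genes, 17 windows in all. Hbegf was left out of this step, so its promoter is not described. The windows were searched on both strands for the letters TGANTCA (AP-1), TGACGTCA (cyclic AMP response element), GATAA (GATA factors) and GGAAA (the core of NFAT sites). The first was present in 6.75%, the second in 1.55%, the third in 22.6% and the last in 55.6% of all 32851 windows of that length. Among the windows of the 7 genes, AP-1 matches were in 2, that of the Rcan1 internal start and the second of Bdnf, and the cyclic AMP response element in 1, that of the Rcan1 internal start. GATAA was in 4 windows, all of Bdnf, and GGAAA in 11. The window of the Rcan1 internal start held 3 GGAAA matches, the AP-1 match from -110 to -104 and the cyclic AMP response element from -175 to -168, counted from the start, while that of the distal start held none of the 4 motifs. The Edn1 window held only a GGAAA match from -11 to -7, and the Ednrb and Agt windows held none. A match is a description of these letters and not a site in use.

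**Figure D5:**
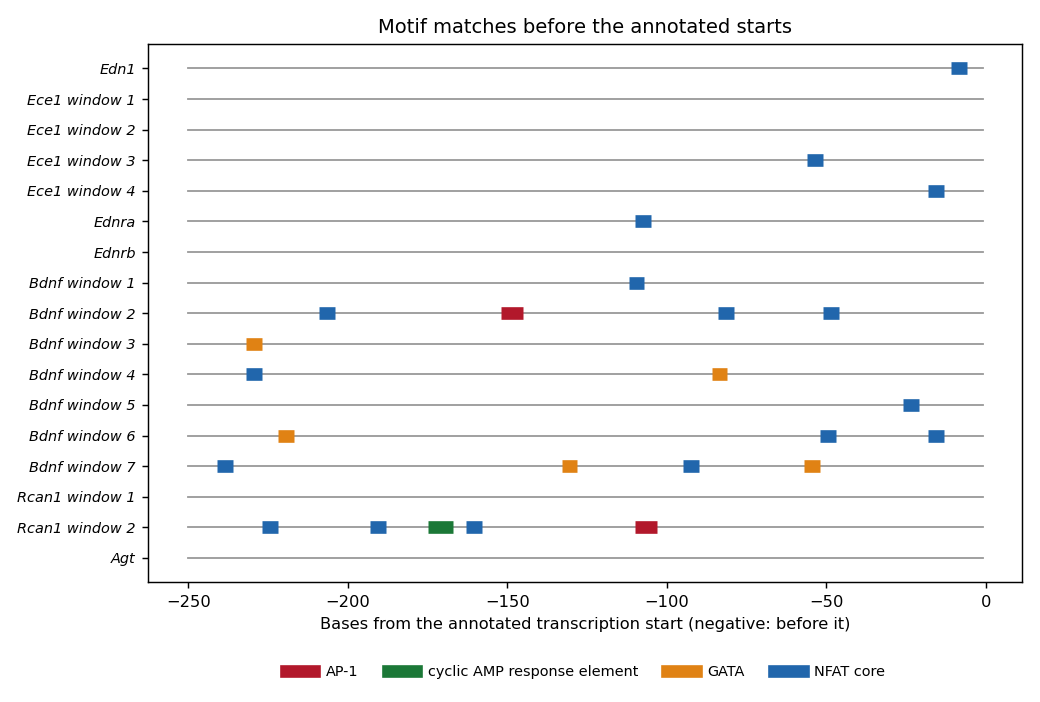
Matches to the 4 motifs on either strand in the 17 windows of 250 bases before the annotated starts of 7 genes; the horizontal axis gives bases from the start and each line is a window. The window of the Rcan1 internal start (window 2) holds AP-1, cyclic AMP response element and NFAT core matches, and that of the distal start (window 1) holds none.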

How the data were processed

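Each library's deposited file lists raw counts by Ensembl gene ID, which the authors had not normalized. Per the labels' protocols, poly(A)-selected RNA was made into directional libraries. The submitters' processing notes name the build mm10 and, among other tools, featureCounts 1.6.4 and STAR 2.5.0c. Neither the annotation release nor the strand setting is given in the sources used here. In every file counts of 2 outnumbered counts of 1, as when both mates of a pair are counted, so counts were also halved.

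GENCODE M21 gave symbols for 36308 IDs (95.33%), positions and exon lengths. Genes were kept with filterByExpr (minimum count 10, minimum total count 15), scaled by TMM and tested with edgeR 4.0.16 in R 4.3.3 (robust quasi-likelihood F-test, group as the only term), with p adjusted by Benjamini-Hochberg over all 16666 genes and a threshold of 0.05. The SE was taken as the size of the log2 fold change over the root of F. The steps were tested on simulated data. In these libraries 3 counts correspond to 0.0395 to 0.0496 CPM.

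The 8 genes and the 6 pathway lists were chosen with earlier results of these data known. Named beside the 8 were listed direct partners, up to 4 further genes per list with the smallest adjusted p and average log2 CPM of at least 0, and the nearest gene in pattern. Markers, further genes at or near 0 counts (Kel, Mme, Agtr1b) and overlapping genes were chosen with their values in view. The alternatives tried were other scalings and filters, each library left out, limma-voom (limma 3.58.1), DESeq2 1.42.0, a block for the replicate number, halved counts, thinned libraries and removal of a trend on exon length and GC content. Proteins were not used here, and 1 listed partner is not reported here.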

Additional observations from a re-analysis of the deposited data

How the results depend on the processing

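As a description of genes picked from this same comparison, the log2 fold changes of Edn1, Bdnf, Ednrb, Ece1 and Rcan1 over 17 alternatives were 1.06 to 1.13, 1.08 to 1.19, 0.50 to 0.59, -0.64 to -0.49 and -0.53 to -0.35. Leaving out single libraries gave 1.07 to 1.13, 1.09 to 1.19, 0.50 to 0.59, -0.64 to -0.52 and -0.50 to -0.46. Those of Ednra were 0.0009 to 0.08, and those of Agt -0.49 to -0.11 under the 16 alternatives that kept it. Hbegf was 0.0287 with the trend on length and GC content removed, against -0.03, and the cause was not tested. Among other named genes, Ppp3ca turned to -0.0011 with total-count scaling and -0.0154 with that trend removed, and Egfr ranged from -0.2109 to 1.0382 when single libraries were left out, negative without control siRNA replicate 1. Adam17 passed at -0.14 with total-count scaling (edgeR adjusted p = 0.0292) and -0.15 with the trend removed (0.00525). Over all genes the counts ran from 4130 to 5597 higher and 4148 to 5326 lower, and over the 73 tested pathway genes outside the 8 from 23 to 30 and 18 to 24, where the main counts were 28 and 21. The renin-angiotensin list ranged from 1 to 2 higher when single libraries were left out, with 2 only without Circ-INSR siRNA replicate 3. Over the 17 alternatives it ran from 3 to 4 lower, against a main count of 3. Gq-coupled genes ran from 8 to 10 higher and 5 to 9 lower, against 10 and 7. Calcineurin and NFAT genes ran from 8 to 10 and 2 to 3, against 10 and 2. Neurotrophin genes ran from 2 to 4 and 5 to 6, against 3 and 6. HB-EGF and ErbB genes ran from 3 to 4 each way, against 3 and 3. Endothelin genes stayed at 1 and 1.

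The replicate numbers do not pair the libraries by design. Libraries of the same number correlated by 0.024, 0.074 and 0.036 in their deviations from the group means. Those of different numbers correlated by -0.044 to 0.006. All these values were small, and whether libraries of the same number belong together was not tested. With the replicate number as a block 4968 genes were higher and 4900 lower, and 3 and 2 of the 8 genes. Low depth limits Agt, Edn2 and Egfr, with at most 42, 16 and 18 counts in any library.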

Other observations

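Markers of other cell types were listed beside those of atrial cardiomyocytes, and 4 of 5 smooth muscle genes rose after Circ-INSR siRNA, beside 28.5% of all genes. Acta2, the smooth muscle actin gene that immature cardiomyocytes also express, rose to 5708, 5733 and 5937 CPM in Circ-INSR siRNA libraries, against 3491, 3420 and 3515 CPM in control siRNA libraries (log2 fold change 0.74, SE 0.03; edgeR adjusted p = 7.45e-09). The summed level of 5 such markers was 6490 to 6730 CPM in Circ-INSR siRNA libraries and 4060 to 4170 CPM in control libraries. Kdr, the receptor of vascular endothelial growth factor, rose to 74.5, 69.9 and 70.6 CPM in Circ-INSR siRNA libraries, against 24.6, 25.4 and 22.6 CPM in control libraries (log2 fold change 1.57, SE 0.05; edgeR adjusted p = 2.74e-09). The 7 fibroblast markers summed to 135 to 154 CPM in Circ-INSR siRNA libraries and 176 to 193 CPM in control libraries, a sum made up mostly of Col1a1, a collagen gene that fell (log2 fold change -0.50, SE 0.06; edgeR adjusted p = 1.83e-05). The collagen genes Col3a1 (log2 fold change 0.87, SE 0.08; edgeR adjusted p = 1.81e-06) and Col1a2 (log2 fold change 1.67, SE 0.30; edgeR adjusted p = 0.000522) rose, the second at 10 to 76 counts per library. Pdgfra, at 21 to 53 counts per library, did not pass (edgeR adjusted p = 0.115). Postn, at 188 to 288 counts, did not pass either (edgeR adjusted p = 0.347). Dcn and Lum had at most 8 and 2 counts. The 4 macrophage markers summed to 3.64 to 4.15 CPM in Circ-INSR siRNA libraries and 6.40 to 7.37 CPM in control libraries. Of these, Cd68 (log2 fold change -0.67, SE 0.10, edgeR adjusted p = 0.00011) and Csf1r (log2 fold change -1.34, SE 0.18, edgeR adjusted p = 5.57e-05) fell. Csf1r had 44 to 114 counts per library, Ptprc had at most 4, and Adgre1 was at 0 in every library. The part of these genes in the values of Edn1, Bdnf or the other signalling genes was not tested.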
